A study of Caenorhabditis elegans with 2 samples.

Results

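Notch signalling is a cell-to-cell pathway in which a ligand on 1 cell binds a receptor on its neighbour, the receptor is cut, and its inner part enters the nucleus and switches on genes together with a DNA-binding partner. In Caenorhabditis elegans it is known for cell fate choices in the germline, the early embryo and the vulva. The 8 genes described here cover each step of that chain. They are the receptors lin-12 and glp-1, the ligands lag-2 and apx-1, the ADAM-type protease sup-17 and the presenilin sel-12, which take part in cutting the receptor, the DNA-binding protein lag-1 and its coactivator sel-8. They were taken by name, 8 of the 19973 nuclear protein-coding genes of the Ensembl annotation, and every listed region was kept whose summit, its highest point, lay from 2 kb upstream of the gene to its 3' end.

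The regions come from chromatin immunoprecipitation and sequencing (ChIP-seq) of RNT-1, the worm's RUNX transcription factor, known from genetics for seam cell divisions. Both samples were whole first-stage (L1) hermaphrodite larvae of strain OP462, genotype unc-119(tm4063) III; wgIs462, collected 6 h after synchronization by starvation, in which RNT-1 carries a C-terminal GFP-FLAG tag and was pulled down with an antibody to GFP. They form 1 group of 2 biological replicates from 1 transgenic line, so values are compared between genes and between replicates. A control experiment that the labels name as possible was not analysed here. Whole larvae mix all tissues, and no expression was measured, so the cells behind a region are not known. The lists give no read depth.

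Positions are on the ce11 assembly, and signal is the authors' own value for each region on a scale the sources do not name. The authors deposited 30000 candidate regions from each replicate and from the pooled reads, and an optimal list of 5560 peaks set by the irreproducible discovery rate (IDR), called IDR peaks here. All 5560 are the strongest regions of the pooled list, with a lowest signal of 71.6, and the other 24440 are called below-threshold regions. A gene without a candidate has a signal under the end of the list (26.1 pooled, 14.8 in replicate 1, 15.5 in replicate 2), not a measured 0.

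IDR peaks of tagged RNT-1 lay at 4 of the 8 genes, lag-1, sup-17, sel-12 and sel-8, and at none of the receptor and ligand genes lin-12, glp-1, lag-2 and apx-1. There were 5 peaks in all, with 2 of them in the first intron of lag-1. By the same rule 24.4% of protein-coding genes had an IDR peak, and 5.42% had at least 2. Longer windows hold more peaks: the share was 18.6%, 17.6%, 25% and 36.1% in the quartiles of window length from short to long. The 8 windows ran from 3.77 to 17.2 kb, with a median of 11.4 kb against 4.03 kb for all genes, and 6 of the 8 were in the longest quartile, where 3 of 6 had a peak. With 8 genes chosen by name these counts are a description, and no test was made on them.

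The sequences around the lag-1, sel-8 and sel-12 summits are shown first. Of these only the lag-1 stretches hold a RUNX core, the short word that RUNX proteins are known to bind. They also hold a site for LAG-1, the DNA-binding protein of Notch signalling. The sup-17 stretch, which like those of sel-8 and sel-12 holds neither, is not shown. The RUNX core was searched as TGTGGT or TGCGGT and the LAG-1 site as ATGGGAA or GTGGGAA, on both strands. The plus strand of WBcel235 (ce11) is given 5' to 3', and capitals mark every match that lies wholly in the stretch. The first stretch is IV:6097177-6097377 around the stronger lag-1 summit and the second is IV:6097641-6097841 around the other, each reaching 100 bases either side. The sel-8 stretch is III:3620878-3620978 and the sel-12 stretch X:915684-915784, each reaching 50 bases either side.
lag-1, stronger peak: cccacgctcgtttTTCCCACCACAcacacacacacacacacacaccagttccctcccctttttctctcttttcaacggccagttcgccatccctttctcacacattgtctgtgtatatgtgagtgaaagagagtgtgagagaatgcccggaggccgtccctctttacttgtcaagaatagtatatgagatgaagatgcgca
lag-1, second peak: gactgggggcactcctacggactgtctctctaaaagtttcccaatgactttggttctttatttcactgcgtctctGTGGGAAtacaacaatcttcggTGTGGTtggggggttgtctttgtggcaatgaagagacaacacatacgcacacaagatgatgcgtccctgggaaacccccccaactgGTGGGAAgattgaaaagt
sel-8: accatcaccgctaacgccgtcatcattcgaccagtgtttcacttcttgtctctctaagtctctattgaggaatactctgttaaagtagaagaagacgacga
sel-12: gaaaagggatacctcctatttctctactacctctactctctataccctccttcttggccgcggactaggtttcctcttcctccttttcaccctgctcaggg

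The pooled summit of the second lag-1 peak lies on a RUNX core. TGTGGT spans bases -3 to 2 counted from that summit, and the LAG-1 site GTGGGAA spans bases -25 to -19, with 15 bases between them, both on the plus strand. A second GTGGGAA lies at bases 83 to 89. The core is at IV:6097738-6097743. The replicate 1 summit, IV:6097737, lies just before it, and that of replicate 2, IV:6097785, lies past it. Within 50 bp of the summit, 1 of the 5 peaks held a RUNX core, and it is the 1 peak that held a LAG-1 site. Over all IDR peaks the shares in the window of 50 bp either side were 10.1% for the RUNX core, 3.2% for the LAG-1 site and 0.36% (20 peaks) for both. In below-threshold regions they were 7.06%, 3.51% and 0.266%. In windows of the same length laid end to end along the genome they were 5.18%, 3.03% and 0.153%. These sets were not matched for base composition, with a median G+C of 46.5% in the IDR windows. The word TGTGGT alone was in 5.76% of IDR peaks and 5.15% of below-threshold regions. That both occur together was noticed after the sequences were read.

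The stronger lag-1 peak has no match within 50 bp. Within 100 bp of its summit the same words lie on the minus strand, with GTGGGAA at bases -87 to -81 and TGTGGT at -82 to -77. The sites share 2 bases. Both lie before the called peak, which begins at IV:6097225, and inside the replicate 2 region, which begins at IV:6097153. Another LAG-1 site on the minus strand, at bases -102 to -96, is cut by the 100 bp limit and is not marked above. Over all IDR peaks, 1.17% had both words within 100 bp of the summit, with 16.4% having a RUNX core and 6.67% a LAG-1 site. No match was found within 100 bp of the sup-17, sel-12 or sel-8 summits, which says only that these letters are not in those windows.

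The gene lag-1 (WBGene00002245, IV:6095407-6110655, plus strand) encodes the CSL-type protein that carries the Notch signal to DNA. Its stronger peak, IV:6097225-6097359, had a pooled signal of 329, rank 1272 of 5560, with the summit 1870 bp downstream of the gene's 5' end. Replicate 1 gave 166 in the region with the nearest summit, 7 bp away, and replicate 2 gave 161, 22 bp away, or 164 ± 3.42 (SD, n = 2). Replicate 2 was 0.971 times replicate 1, a smaller gap than at the second lag-1 peak. Replicate 1's region is only 52 bp wide and begins 5 bp past the pooled summit, so by the rule that the summit must lie inside the region this peak has no match in replicate 1.

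The second lag-1 peak, IV:6097633-6097848, lies 464 bp further into the gene, with a pooled signal of 190 and rank 2558. Replicate 1 gave 126 and replicate 2 gave 76.2, or 100.985 ± 35.0 (SD, n = 2). Replicate 2 was thus 0.606 times replicate 1, below the interquartile range of all IDR peaks (0.723 to 1.08), and its summit was 48 bp from that of replicate 1, against a median of 13 bp. The peak with the RUNX core at its pooled summit is the less even of the lag-1 peaks.

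Both lag-1 peaks lie in intron 1 of the long transcripts, which runs from IV:6095505 to IV:6101421 (5917 bp), and are 3771 bp or more upstream of the starts of the shorter lag-1 transcripts at IV:6101512 and IV:6101519. The nearest protein-coding start is that of the long lag-1 transcripts. The nearest other annotated gene is the noncoding RNA gene K08B4.41, whose nearest edge lies 932 bp from the stronger summit and 468 bp from the second. The next strongest candidate of the intron, 4570 bp from the 5' end, had a pooled signal of 67.7, just under the IDR threshold, with 50.6 in replicate 1 and 25.7 in replicate 2. Of the 7 pooled candidates of lag-1 the remaining ones were between 28.7 and 56.0.

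**Figure D1:**
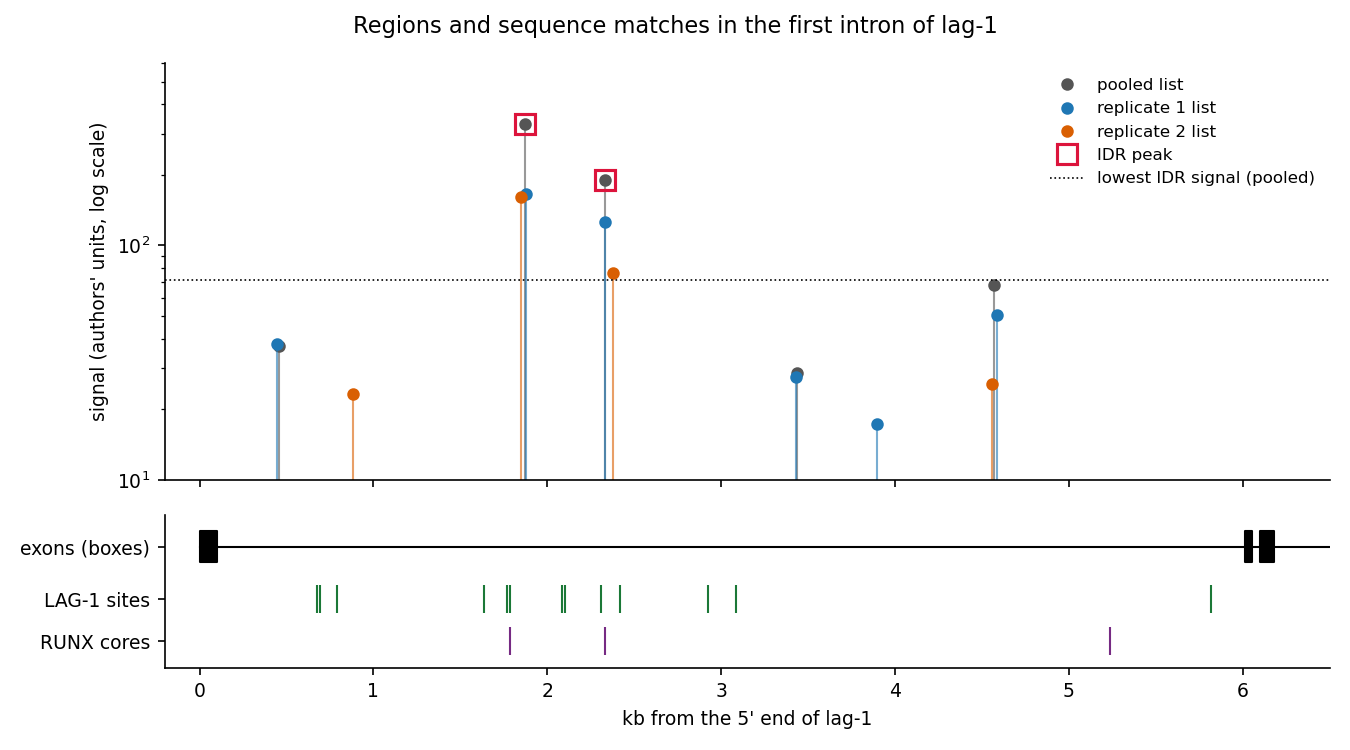
Regions and sequence matches along the first intron of lag-1 in kb from the gene's 5' end, with the authors' signal on a log axis for the pooled list (grey), replicate 1 (blue) and replicate 2 (orange), and red squares for IDR peaks. Below, boxes are exons of the long transcript and ticks are the 13 LAG-1 sites and 3 RUNX cores of the intron; both peaks (329 and 190) lie among the LAG-1 sites.

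The first intron of lag-1 holds many LAG-1 sites, most of them in its first part. There are 13 matches to ATGGGAA or GTGGGAA, 2.20 per kb against 0.334 per kb over the nuclear genome, a rate at which 1.97 matches would fall in its length. All but 1 begin between 675 and 3086 bp from the gene's 5' end, and the last begins at 5819 bp. Of 16938 spans of the same length laid end to end along the genome, 59 (0.348%) held at least 13, with a median of 2. Of the 13 matches 3 lie wholly within 100 bp of a peak summit and 10 do not. The 10 include the site cut by that limit at the stronger peak. They also include 3 that begin 675 to 788 bp from the gene's 5' end, where the only candidate over a match was a replicate 2 region with a signal of 23.2. RUNX cores were not dense there: the intron holds 3, close to the 3.31 of the genome rate, and 2 of the 3 lie within 100 bp of the peak summits. This is a property of the sequence, it was looked at after the peaks were seen, and LAG-1 binding was not measured here.

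Its coactivator gene sel-8 (WBGene00004765, III:3612951-3627142, minus strand) encodes the glutamine-rich protein that does the work of Mastermind. It had the weakest of the 5 peaks, III:3620820-3621035, with a pooled signal of 84.0 and rank 4906. The replicates gave 40.9 and 41.4, or 41.1 ± 0.315 (SD, n = 2), with summits at the same base. This is the most even of the 5 peaks, although rank 5826 in replicate 1 is outside the 5560 strongest regions of that replicate.

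Like those of lag-1, the sel-8 peak is in a long first intron, of 8533 bp, 6214 bp downstream of the long transcript's start and 2397 bp upstream of the start of the short transcript at III:3618531. With peaks limited to 2 kb around the 5' end, or given to the nearest start within 2 kb, sel-8 had none. The noncoding RNA gene C32A3.7 lies 592 bp from the summit. The other 3 pooled candidates of sel-8 lie in the same intron with signals from 41.2 to 45.3, and each was matched in replicate 2 but not in replicate 1. The sel-8 intron holds 3 LAG-1 sites (0.352 per kb), near the genome rate, and 6 RUNX cores, none within 100 bp of the summit. Introns held 3 of the 5 peaks of the 8 genes, against 16.7% of all IDR peaks, and promoters, here the 1 kb upstream of a protein-coding start, held the other 2, against 52.6%. These sets are unlike: 6 of the 8 windows are in the longest quartile, and 22.3% of all IDR peaks were intergenic. Of the 3 intronic peaks, 2 lie in the same lag-1 intron.

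The protease gene sup-17 (WBGene00006324, chromosome I, 8792964 to 8797295, plus strand) encodes the ADAM10-type enzyme that makes the outer cut in the receptor. Its peak had a pooled signal of 230 and rank 2077, 492 bp upstream of the start. Replicate 1 gave 95.2 and replicate 2 gave 118, or 107 ± 16.1 (SD, n = 2), with summits 1 bp apart. The summit is 1 bp from the annotated noncoding RNA gene DY3.11, so position alone does not give it to sup-17. Within the sup-17 body there were 3 pooled candidates, the strongest at 42.2.

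The presenilin gene sel-12 (WBGene00004769, X:915867-918290, plus strand) encodes the catalytic part of gamma-secretase, which makes the cut inside the membrane. Its peak, X:915626-915841, had a pooled signal of 117 and rank 3841, 133 bp upstream of the start. Replicate 1 gave 46.6 and replicate 2 gave 64.9, or 55.7 ± 12.9 (SD, n = 2), with replicate 2 above replicate 1 as at sup-17. The protein-coding start nearest to the summit is that of sel-12 itself. Both cutting enzymes of the 8 had a peak just upstream of the start, while the nuclear genes lag-1 and sel-8 had theirs in introns. The genes also differ in length, 4332 bp (sup-17) and 2424 bp (sel-12) against 15249 bp (lag-1) and 14192 bp (sel-8). Its part in this was not tested. The nuclear partner gene cdk-8, described below, had its peak 29 bp inside its start.

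**Figure D2:**
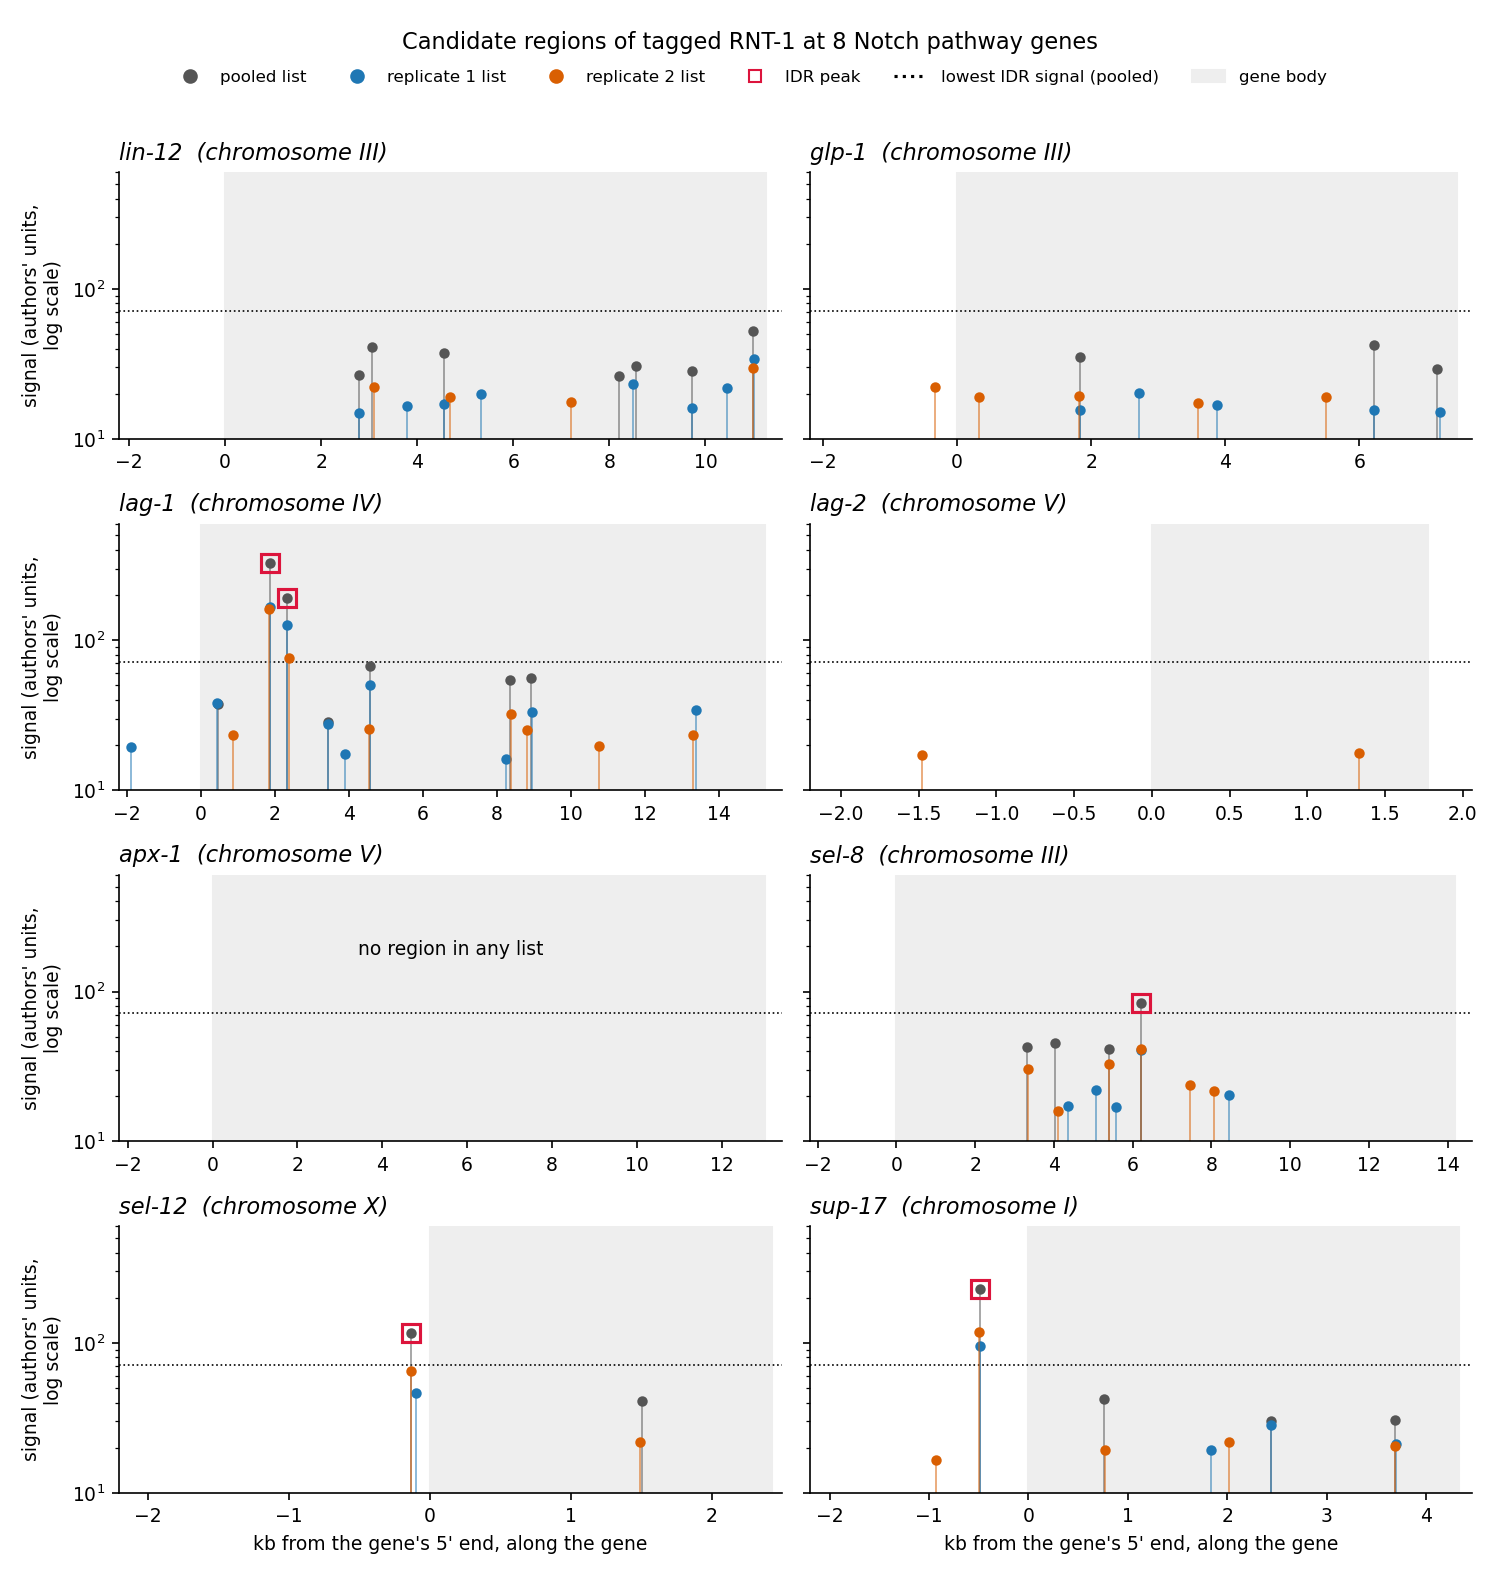
Every listed region at the 8 genes, by distance in kb from the gene's 5' end along the gene and by the authors' signal on a log axis, with pooled (grey), replicate 1 (blue) and replicate 2 (orange) regions, IDR peaks as red squares, the gene body shaded and the lowest IDR signal (71.6) dotted. Squares appear at lag-1, sel-8, sel-12 and sup-17, points under the line at lin-12 and glp-1, and no region at apx-1.

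By pooled signal the order of the peaks was lag-1 (329), sup-17 (230), lag-1 again (190), sel-12 (117) and sel-8 (84.0). In replicate 1 the second lag-1 peak stood above sup-17 (126 against 95.2), and in replicate 2 below it (76.2 against 118), so those neighbours do not differ beyond their spread. The other neighbours kept their order in both replicates. The strongest of the 5 was above 77.1% of all IDR peaks and the weakest above 11.8%, with a median over all IDR peaks of 174.

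At the 4 peaks with a match in both replicates by the summit rule, replicate 2 was 0.606 to 1.39 times replicate 1, with a median of 1.13 against 0.895 over all IDR peaks matched in both. Such a match was found for 95% of IDR peaks. The coefficient of variation ranged from 0.766% at sel-8 to 34.7% at the second lag-1 peak, and the median over all matched IDR peaks was 15.6%.

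**Figure D3:**
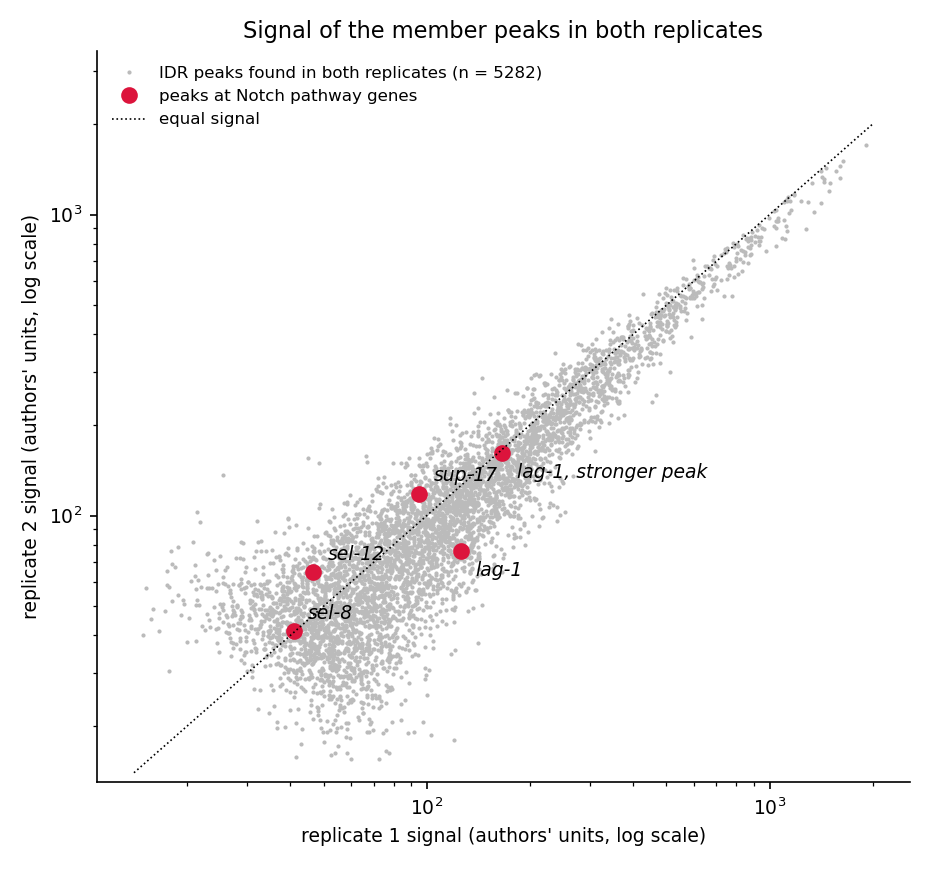
The authors' signal in replicate 1 against replicate 2 on log axes for the 5282 IDR peaks matched in both replicates (grey) and the 5 peaks at the Notch pathway genes (red), the stronger lag-1 peak by the nearest replicate 1 summit. The sup-17 and sel-12 peaks lie above the line of equal signal and the second lag-1 peak below it.

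The receptor genes lin-12 and glp-1 had candidates under the threshold and no IDR peak. At lin-12 (WBGene00003001, III:9060221-9071472, minus strand) there were 7 pooled candidates, the strongest 52.2 in a coding exon 10995 bp from the start, close to the 3' end, with 34.3 in replicate 1 and 29.7 in replicate 2 (32.0 ± 3.26, SD, n = 2). The other 6, from 26.3 to 40.7, each lacked a match in at least 1 replicate, and none of the 7 was upstream of the gene. The lin-12 window also holds many LAG-1 sites, 14 against 4.42 at the genome rate, and 12 RUNX cores against 7.40, yet no IDR peak.

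At glp-1 (WBGene00001609, III:9092241-9099698, plus strand), the receptor of the germline, there were 3 pooled candidates of 29.3 to 42.5. Of these 1, in an intron 1827 bp from the start (35.2), was found in both replicates, at 15.6 (rank 27928 of 30000) and 19.3 (rank 19967). Replicate 2 alone had weak regions around the glp-1 start, the higher of them 22.3.

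The ligand genes had the fewest regions. At lag-2 (WBGene00002246, V:3188343-3190115, plus strand) no pooled and no replicate 1 candidate was found, and replicate 2 had 2, at 17.1 (rank 25287 of 30000) and 17.7 (rank 23631). At apx-1 (WBGene00000168, V:3210196-3223221, plus strand) no list had a region in a window of 15.03 kb that takes in 6 annotated starts. Matches to the motifs were present all the same: the apx-1 window holds 7 RUNX cores (8.39 at the genome rate) and 3 LAG-1 sites (5.01), and that of lag-2 holds 4 RUNX cores (2.11) and no LAG-1 site. Over all protein-coding genes 21.6% had no candidate in any list, and among the 565 with a window at least as long as that of apx-1 the share was 15%.

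Counting candidates of any strength, 6 of the 8 genes had a pooled one, against 64.6% of all genes, and the same 6 had one in each replicate, against 54.1%. Of the 22 below-threshold regions in the 8 windows, with a median signal of 39.0, 4 were matched in both replicates (1 each at lin-12, glp-1, lag-1 and sup-17), against 23% of all below-threshold regions. They lay in introns (10), coding exons (9), and 1 each in a 3' UTR, a 5' UTR and a promoter.

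The nearest IDR peaks outside the windows of the 4 genes without one lay closer to other genes' starts. Beside lin-12 it was 1043 bp past the 3' end, with a signal of 71.6 and rank 5556 of 5560, matched in replicate 1 (52.3) and not in replicate 2, 153 bp upstream of gst-1. For glp-1 it was 2620 bp upstream, 620 bp outside the window, at 194 (112 in replicate 1, 91.6 in replicate 2) and 246 bp upstream of mccc-2. The lag-2 neighbour (86.7) lay 3125 bp past the 3' end and 3 bp upstream of Y73C8B.3, and that of apx-1 (74.3) lay 9533 bp before the gene and 240 bp upstream of K08D9.4. With 5 kb upstream in place of 2 kb, glp-1 was the 1 gene to be added, by the mccc-2 peak.

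Other genes of the pathway were each listed under a single role. The roles were set for this list, and negative regulation, trafficking and turnover is a mixed group. Genes in it may also promote the pathway or act in others, so its count does not speak for negative regulation of Notch. The largest count of genes with an IDR peak was at negative regulation, trafficking and turnover. None of the genes listed as the REF-1 family and other targets had one. Genes placed under other roles may also be targets, for example lst-1, lst-2, lst-4, lip-1, ark-1 and dpy-23. Of these lst-2, lst-4 and dpy-23 had an IDR peak by the window rule, and lst-1, lip-1 and ark-1 had none. The count for the listed targets thus depends on the sorting and does not speak for all Notch targets. Of 49 names, 48 matched a protein-coding gene, and 15 of these 48 (31.2%) had an IDR peak, against 24.4% of all protein-coding genes and 18.6% and 36.1% in the shortest and longest quartiles of window length. Among ligands it was 2 of 13, among cutting enzymes and their helpers 2 of 8, among nuclear partners 1 of 3, among genes of negative regulation, trafficking and turnover 10 of 15, and among the REF-1 family and other targets 0 of 9. Window length goes with these counts: 8 of the 15 in the largest group and 2 of the 9 targets were in the longest quartile, 5 of the 9 targets were in the shortest, and its part in the counts was not tested. Of the 18 peaks 9 lie nearer to the start of another protein-coding gene. Most of these 9 are at genes of negative regulation, trafficking and turnover, whose count thus rests in part on the window rule.

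Beside sup-17, the ADAM17-type protease gene adm-4 had a stronger peak, at 893 pooled, with 498 in replicate 1 and 411 in replicate 2 (454 ± 61.3, SD, n = 2), 253 bp upstream of its start. The tetraspanin gene tsp-12 had 133 pooled, with 49.7 and 73.1, but that summit is 301 bp from the start of copg-1 and 1044 bp from its own. The other gamma-secretase genes aph-1, aph-2, pen-2 and hop-1 had no IDR peak, so sel-12 was the 1 gene of the complex with one.

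Among genes of turnover and trafficking, sel-10, the F-box gene of Notch degradation, had 574 pooled, with 266 and 289 in the replicates (278 ± 16.04, SD, n = 2), 156 bp upstream of its start. The clathrin adaptor gene dpy-23 had 597, with 283 and 322 (303 ± 27.9, SD, n = 2), 305 bp upstream. The highest, 921 at lst-4, a sorting nexin gene, is 428 bp from the start of ccar-1 and 1260 bp upstream of lst-4, and it holds a RUNX core within 50 bp. At sel-2, a gene of endosomal traffic, the stronger of its 2 peaks (163) is 134 bp from the start of mab-21 and also holds a RUNX core.

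The ligand-like gene dos-1 had a peak of 225 in an intron 348 bp from its start, with 103 and 129 in the replicates (116 ± 18.2, SD, n = 2). Both dos-3 peaks (135 and 100) are nearer to other genes' starts. The Mediator kinase gene cdk-8 had 93.0, with 52.3 and 51.1, 29 bp inside its start. None of the 18 peaks held a LAG-1 site within 50 bp, and 2 held a RUNX core, so no peak among them held the pair seen at the second lag-1 peak.

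**Figure D4:**
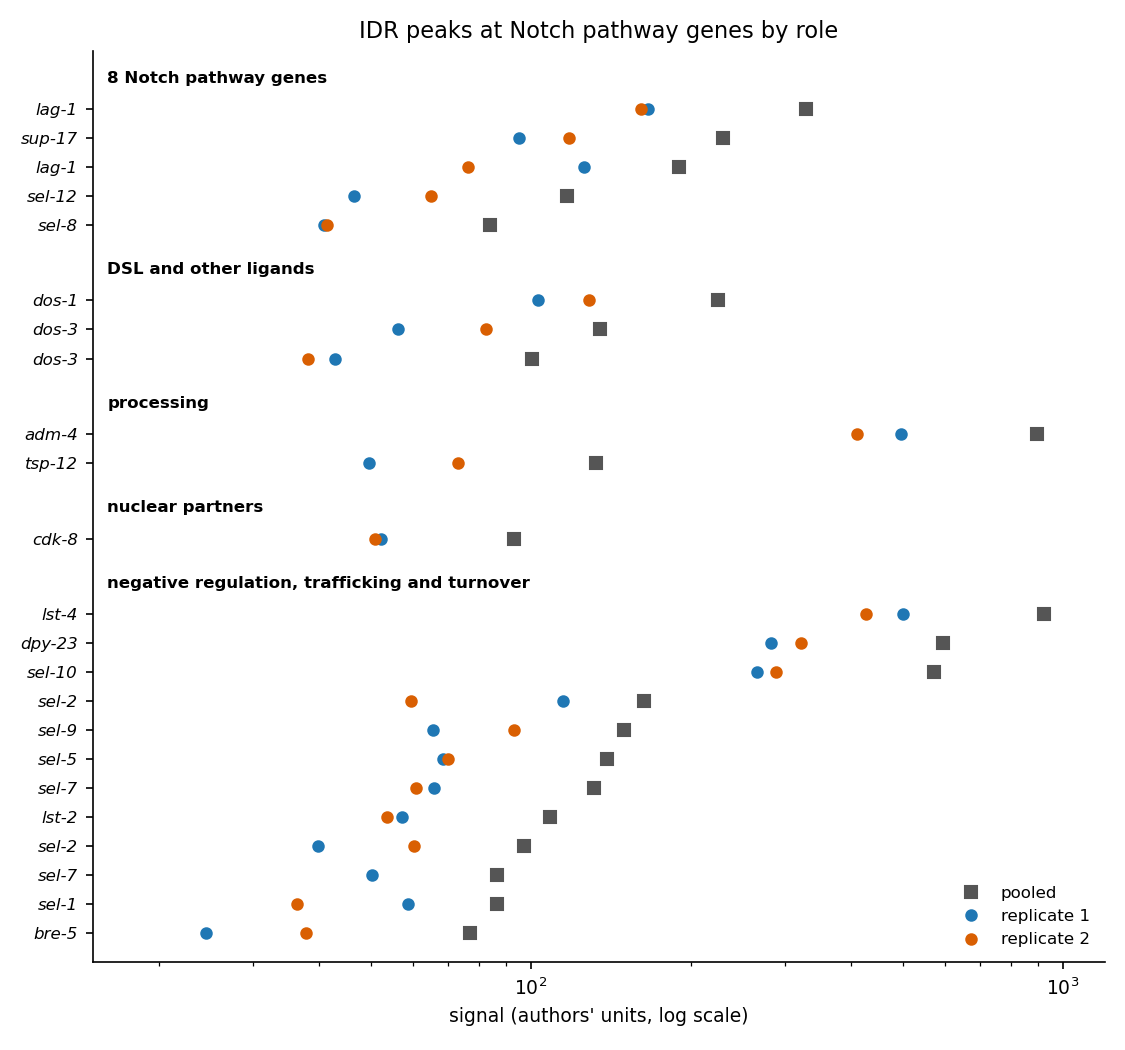
The authors' signal on a log axis of each IDR peak at the 8 Notch pathway genes and at other pathway genes by role, with the pooled value (square) and the replicates (points; the stronger lag-1 peak by the nearest replicate 1 summit). Of the peaks at other pathway genes, 1 has no replicate 2 match; lst-4 (921) and adm-4 (893) are the highest.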

How the data were processed

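The authors deposited narrowPeak lists on ce11, per the labels and the submitters' file list: 1 list of candidates for each replicate, 1 for the pooled replicates, and the IDR list. The deposited signal is the caller's value for each region, on a scale not given in the sources used here; neither is the aligner or the peak caller. The deposited −log10 q values, 3.07 to 3.97 in the IDR list, were not used for any call. Lists on ce10 were not used here. Genes came from Ensembl release 115 for WBcel235 and sequence from the RefSeq copy of that assembly; 1 microRNA gene of the wider list was not matched by name.

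Summits were placed with Python 3.11.15 and pandas 2.3.3. A replicate region counted as the match of a peak if it contained the peak's summit (the nearest summit where several did). Counting and motif functions were tested on simulated data. The members, the wider list and its roles were chosen with earlier results of these data known, so no test or adjusted p was computed. Named genes were the 8 members, up to 4 others per role by signal, and genes nearest to a member's peak. The 4 other gamma-secretase genes, genes beside peaks of non-members, and lst-1, lst-2, lip-1 and ark-1 were named after their values were seen. The alternatives tried were the strength, window, matching and motif settings given in the closing section. The labels call the replicates biological, and no depth is known.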

Additional observations from a re-analysis of the deposited data

How the results depend on the processing

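Of 49 alternative values 32 were within 1.5 times of those reported (for the replicate ratio, within its SD of 0.342) and 17 were not; that tolerance takes in 3 against 4 genes and 33.4% against 24.4%. With the stronger 50% of the IDR list only, 2 of the 8 genes (lag-1 and sup-17), 5 other pathway genes and 15.7% of all genes had a peak, and the 8 windows held 3. With gene bodies only the values were 2 (lag-1 and sel-8), 6, 6.48% and 3. Peaks within 2 kb of the 5' end, or given to the nearest start within 2 kb, were 3, at 3 of the 8 genes. Under both settings sel-8 was lost. The shares of all genes with a peak were 24.2% and 17.2%, and of the 48 other pathway genes 12 and 9 had one. With 5 kb upstream, chosen after seeing the data, there were 8 peaks, at 5 of the 8 genes, against 33.4% of all genes. From the 5560 strongest regions of a single replicate, 3 to 4 of the 8 genes had a region (sel-8 was lost without replicate 2), with 5 regions in either case, 14 other pathway genes, and 24.1 to 24.6% of all genes. Within 100 bp of the summit, 2 of the 5 peaks had a RUNX core and 2 a LAG-1 site. Of all IDR peaks 5.68% held a RUNX core within 25 bp, 16.4% within 100 bp, and 5.76% held TGTGGT alone within 50 bp. Unknown depth limits what a missing candidate means.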
